A study of Homo sapiens with 8 samples.

Results

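To assess how transcripts of the mitotic machinery respond to inhibition of the immunoproteasome, 52 genes of mitosis were followed by RNA-sequencing in MOLM-13 cells given PR-957 or its diluent. The genes were taken by symbol from a list of mitotic kinases, kinesins, kinetochore proteins and their partners. All 52 were found among the 38551 gene rows with values, and all 52 passed the filter on low counts. MOLM-13 is a human acute myeloid leukemia line with a rearranged KMT2A gene, and PR-957 (ONX-0914) inhibits the immunoproteasome subunit PSMB8. Cells of 4 libraries received 100 nM PR-957 for 72 h, and cells of the other 4 received DMSO for the same 72 h. All libraries come from 1 established line with no further genetic change given in the labels, and nothing states that the replicates were separate cultures. The p-values therefore measure the spread between these libraries, which may be technical.

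Entry into mitosis is driven by CDK1 bound to cyclins A and B, and by the Polo and Aurora kinases. Kinesin motors and spindle proteins then build the spindle, and the kinetochore, assembled on centromeric chromatin, couples each chromosome to spindle microtubules. The spindle assembly checkpoint holds back the anaphase-promoting complex (APC/C) until chromosomes are attached, after which CDC20 and the APC/C trigger loss of cyclin B and securin. Most of these genes are transcribed in G2 and mitosis under B-MYB (MYBL2), FOXM1 and the MuvB complex, which acts at the cell cycle genes homology region (CHR) of their promoters, often beside CCAAT boxes bound by NF-Y. In bulk RNA, more cells in G2 or mitosis and more transcript per cell cannot be told apart.

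Promoter windows from RefSeq, on build GRCh38.p14, were found for 44 of the 52 genes, in 54 windows that run from 250 bases before to 50 bases after a start site. The windows were searched on both strands for the CHR (TTTGAA or TTCGAA), the CCAAT box (CCAAT) and an E2F site (TTTCGCGC or TTTGGCGC). These words can overlap each other, as a CHR and a CCAAT box do in the MKI67 sequence. The CHR was present in 68.5% of windows of the mitotic genes, in 12.1% of 14379 windows of tested genes and in 16.4% of all 35116 windows. CCAAT was present in 75.9% of windows of the mitotic genes and in 34.6% of all windows. The E2F words were present in 5.56% of windows of the mitotic genes, in 1.82% of windows of tested genes and in 1.15% of all windows. The share in the mitotic genes rests on 3 windows, which belong to CDK1 and NUSAP1 alone. Sequence before the start site is shown for MYBL2, MKI67 and CDC20, from the 3 roles with the highest median fold change, and for HMMR, which showed the largest decrease. Capitals mark matches to the searched words, and each line runs 5′ to 3′ on the strand of the gene.
MYBL2, chr20:43666964-43667018, plus strand: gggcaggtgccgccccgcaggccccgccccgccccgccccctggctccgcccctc
MKI67, chr10:128126424-128126573, minus strand: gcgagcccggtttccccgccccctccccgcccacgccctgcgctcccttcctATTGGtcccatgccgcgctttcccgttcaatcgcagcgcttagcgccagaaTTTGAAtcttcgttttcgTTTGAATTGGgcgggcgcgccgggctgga
CDC20, chr1:43358831-43358980, plus strand: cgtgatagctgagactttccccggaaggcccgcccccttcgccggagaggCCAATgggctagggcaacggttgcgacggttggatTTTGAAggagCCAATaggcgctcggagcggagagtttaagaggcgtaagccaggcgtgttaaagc
HMMR, chr5:163460602-163460631, plus strand: gaTTTGAATTTGAAaccggtagggagtgat

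The MYBL2 stretch is shorter because it ends where the deposited model of the gene begins, upstream of the start site used. It therefore does not reach that start site. The HMMR stretch was limited to the last 30 bases before its start site, because an annotated untranslated region overlaps the bases upstream. The whole 300-base window of MYBL2 held none of the searched words. CDC20 carried a CHR 65 bases before its start site, with CCAAT boxes starting 100 and 55 bases before it. MKI67 carried the CHR at 47 and 29 bases before the start site, and HMMR carried it at 28 and 22 bases, in tandem. HMMR also held CCAAT boxes starting 144, 95, 69 and 66 bases before its start site, outside the stretch shown. Among genes with a window, and by the response to PR-957 described next, the CHR was found in 22 of 29 that rose, in 11 of 14 that passed no threshold and in HMMR. CCAAT was found in 25 of 29, in 10 of 14 and in HMMR. Here a gene was counted when any of its windows held the word, whereas the shares above are per window. The share of all tested genes counted in this way was not determined. A match is a description of letters and not of a bound factor.

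Treatment with PR-957 raised the transcripts of 33 of the 52 mitotic genes when judged by the quasi-likelihood test of edgeR (adjusted p under 0.05, over all 13179 genes tested). For comparison, 23.1% of all tested genes were called higher. The only gene called lower was HMMR, whereas 23.5% of all tested genes were called lower, and 18 genes passed the threshold in neither direction. The changes were small. The median log2 fold change over the 52 genes was 0.29, a 1.23-fold increase, against a median of 0.003 over all tested genes, and the range was -0.19 to 0.73. At least 1.5-fold increases were called for 3 genes, CDC20, CENPA and SPC25, where 6.8% of all tested genes met that threshold. Fold change was above 0 for 47 of the 52 genes. In 35 genes every PR-957 library lay above every DMSO library, a pattern seen in 20.8% of tested genes. RACGAP1 and TPX2 were among these 35 without passing the adjusted threshold (adjusted p = 0.0601 and 0.0639). In no mitotic gene did every PR-957 library lie below. The share of all tested genes with that opposite pattern was not determined, so this last count has no background beside it.

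**Figure D1:**
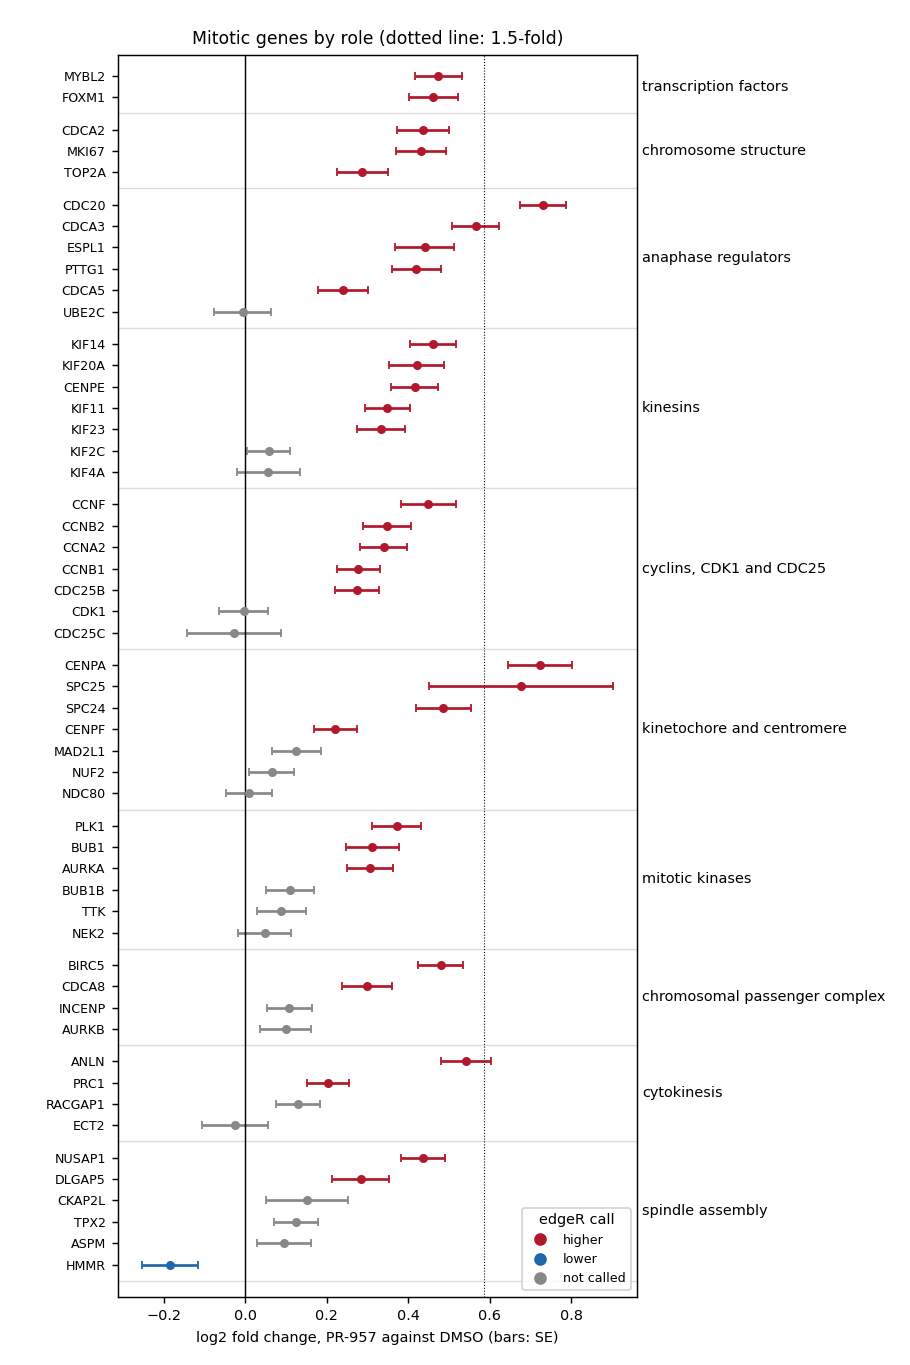
Log2 fold change of PR-957 against DMSO (x axis, bars show the SE, 4 libraries per group) for each of the 52 mitotic genes, ordered by role. Red points are genes called higher, the blue point is HMMR, called lower, and grey points passed no threshold, all with TMM scaling. CDC20 at 0.73 and CENPA at 0.72 lie farthest right, and NDC80, CDK1 and UBE2C lie at 0.

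Counts of these genes ran from 24 to 11827 per library, and library totals ran from 16675036 to 23111223. The 52 genes together took 0.381% to 0.399% of counts in DMSO and 0.486% to 0.513% in PR-957. Mitochondrially encoded genes took 1.94% to 2.75% of counts in DMSO and 4.15% to 5.24% in PR-957, and cytosolic ribosomal protein genes took 17.8% to 19.1% and 13.7% to 15.5%. Leaving both classes out before scaling gave the same number of increases, 33. Scaling by library totals alone, in place of the trimmed mean of M-values (TMM), moved the median of all genes by 0.078 on the log2 scale and the genes called from 3045 higher and 3098 lower to 4066 higher and 2353 lower. With that scaling 43 mitotic genes were higher and 0 were lower, and the 10 genes added were INCENP, AURKB, RACGAP1, KIF2C, MAD2L1, NUF2, BUB1B, TTK, TPX2 and ASPM. Calls in the following paragraphs are those with TMM scaling. On the second principal component, which held 13.5% of the variance, replicates 1 and 2 lay above 0 and replicates 3 and 4 below in both groups. DMSO replicate 4 was farthest out (-27.8), and DMSO replicate 3 (-2.02) lay nearer DMSO replicate 1 (12.4) than replicate 4. In DMSO the split into pairs was therefore not clear. The labels name no batch for these pairs. Of the mitotic genes, 33 were higher within replicates 1 and 2 alone, 31 within replicates 3 and 4 alone and 35 without DMSO replicate 4. The share of all tested genes called in these fits was not determined. The 23.1% called higher in the fit of 8 libraries is therefore no background for these counts. Among 8 markers of the myeloid line, CD33, SPI1, FLT3, CEBPA, MPO, HOXA9, MEIS1 and PTPRC were all detected. Of the markers of other cell types reported here, CD3E was at 0 counts in all libraries, CDH5 had at most 1 count, EPCAM was under 1 CPM and COL1A1 ran from 0.752 to 2.05 CPM (counts scaled to a common library size, after TMM).

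First, the transcription factors were examined. Both rose. MYBL2, the B-MYB subunit that activates MuvB target genes, was at 120, 125, 128 and 108 CPM in DMSO replicates 1 to 4 and at 166, 171, 165 and 165 CPM in PR-957 replicates 1 to 4. FOXM1, a forkhead factor that follows B-MYB at the same promoters, was at 64.7, 64.2, 72.9 and 61.3 CPM in DMSO and at 85.7, 90.1, 93.7 and 92.5 CPM in PR-957. The groups did not overlap for either gene. Their log2 fold changes were alike, 0.47 (SE 0.06, adjusted p = 1.91e-06) for MYBL2 and 0.46 (SE 0.06, adjusted p = 5.1e-06) for FOXM1. Of the FOXM1 exon bases, 12.1% lie opposite ITFG2. The ratio of MYBL2 to FOXM1 counts within a library was 1.76 to 1.95 in DMSO and 1.77 to 1.94 in PR-957, so the ranges overlapped (exact permutation p = 0.771, two-sided, 4 against 4 libraries).

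Next, the genes of chromosome structure were compared. All 3 rose, with a median log2 fold change of 0.43. CDCA2 (Repo-Man), which brings protein phosphatase 1 to anaphase chromatin, was at 36.3, 36.0, 41.2 and 36.7 CPM in DMSO and at 48.6, 51.5, 49.4 and 53.6 CPM in PR-957, a log2 change of 0.44 (SE 0.06, adjusted p = 1.87e-05). MKI67, the Ki-67 protein that coats mitotic chromosomes, rose by 0.43 (SE 0.06, adjusted p = 1.17e-05), from 200 to 242 CPM across DMSO libraries to 276 to 312 CPM across PR-957 libraries. TOP2A, the topoisomerase that untangles sister chromatids, was at 410, 388, 432 and 406 CPM in DMSO and at 458, 472, 540 and 529 CPM in PR-957. Its log2 fold change was 0.29 (SE 0.06, adjusted p = 0.000755). None of these groups overlapped.

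Among the 6 anaphase regulators, 5 rose and UBE2C did not pass the threshold. CDC20 (chr1:43358981-43363203, plus strand, hg38), the coactivator through which the APC/C recognises mitotic substrates, showed the largest increase of all 52 genes. It was at 79.0, 88.3, 92.4 and 86.2 CPM in DMSO and at 149, 144, 140 and 142 CPM in PR-957. The lowest PR-957 library stood well above the highest DMSO library, and the log2 fold change was 0.73 (SE 0.06, adjusted p = 4.51e-09), a 1.66-fold increase. CDCA3, a trigger of mitotic entry, rose by 0.57 on the log2 scale (adjusted p = 1.86e-07), although 14.8% of its exon bases lie opposite GNB3. The separase gene ESPL1 and the securin gene PTTG1, which encode the protease that opens cohesin and its inhibitor, rose by 0.44 and 0.42 (adjusted p = 5.86e-05 and 1.2e-05). CDCA5 (sororin), which protects cohesin, rose by 0.24 (adjusted p = 0.0033). UBE2C, the ubiquitin-conjugating enzyme that works with the APC/C, was at 74.5, 68.7, 71.1 and 74.9 CPM in DMSO and at 84.2, 69.5, 67.9 and 66.6 CPM in PR-957. These groups overlapped, and the fold change was -0.0062 on the log2 scale (SE 0.07, adjusted p = 0.951). PR-957 replicate 1 was the highest library and the other 3 PR-957 libraries lay below the middle of the DMSO range.

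Of 7 kinesins, 5 rose and the remaining 2, KIF2C and KIF4A, passed no threshold. KIF14, a motor of the late spindle and midbody, was at 56.4, 60.3, 57.8 and 58.9 CPM in DMSO and at 76.7, 85.6, 78.9 and 80.0 CPM in PR-957. The groups were apart, with a log2 change of 0.46 (SE 0.06, adjusted p = 1.97e-06). KIF20A, another motor of the central spindle, rose by 0.42, CENPE, the kinetochore motor that moves chromosomes to the metaphase plate, by 0.42, KIF11, which pushes spindle poles apart, by 0.35, and KIF23, the motor of centralspindlin, by 0.33 (adjusted p from 9.26e-06 for CENPE to 0.000126 for KIF23). KIF2C, a microtubule depolymerase that corrects attachments, had a log2 change of 0.06 (adjusted p = 0.386). KIF4A, the chromokinesin that limits growth of midzone microtubules, was at 29.3, 31.4, 30.5 and 29.2 CPM in DMSO and at 26.6, 33.8, 32.8 and 31.8 CPM in PR-957. PR-957 replicate 1 was the lowest of the 8 libraries and the other 3 were the highest, and the fold change of 0.06 (SE 0.08) did not pass (adjusted p = 0.579).

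**Figure D2:**
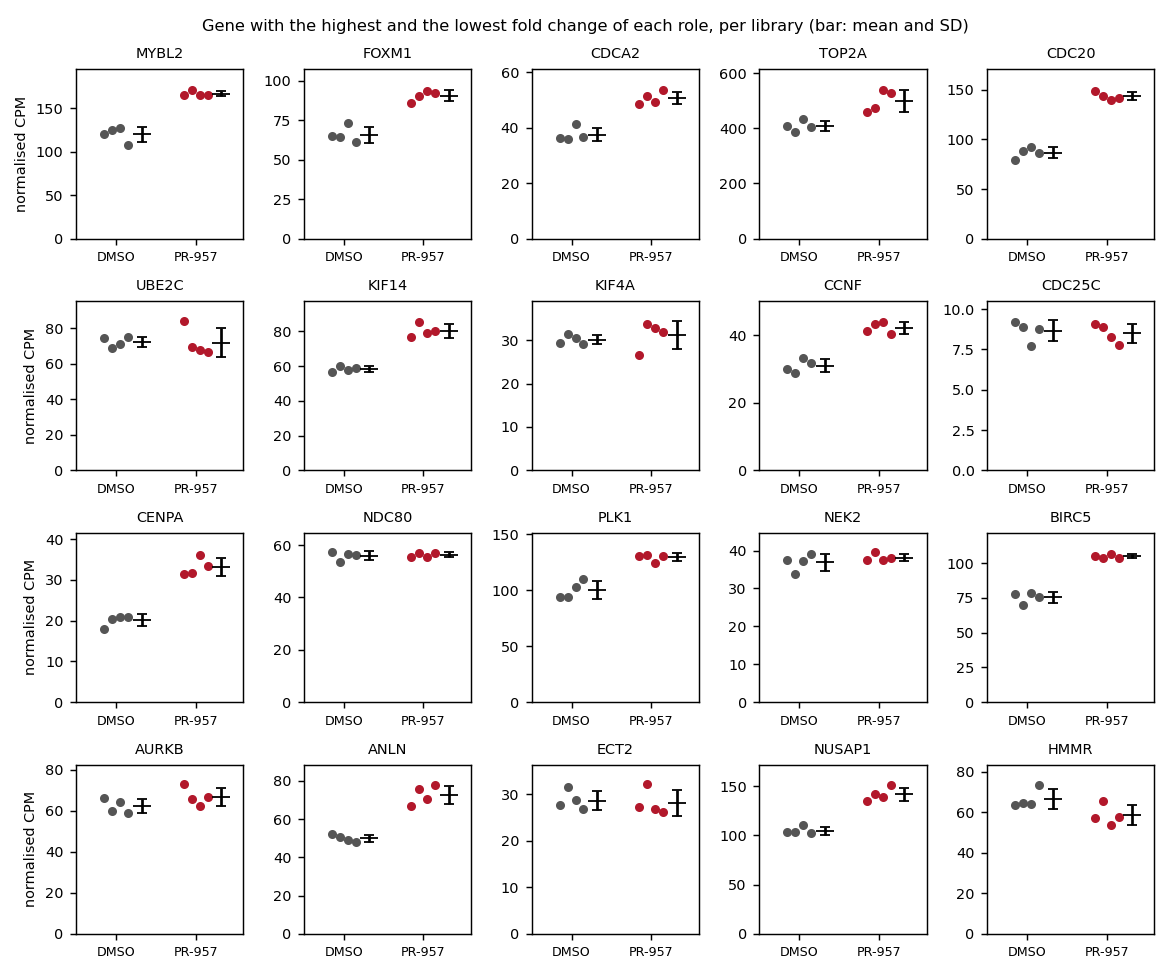
TMM-normalised CPM (y axis, from 0) in each of the 4 DMSO (grey) and 4 PR-957 (red) libraries, in order of replicate number, with the mean and SD of each group beside them, for the gene with the highest and the gene with the lowest fold change of every role. CDC20 separated the groups completely, from 79.0 to 92.4 CPM in DMSO and from 140 to 149 CPM in PR-957. The groups overlapped for UBE2C, ECT2, HMMR, KIF4A, CDC25C, NDC80, NEK2 and AURKB.

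The mitotic cyclins rose and their kinase did not pass the threshold. CCNB2, CCNA2 and CCNB1, the cyclins that activate CDK1, had log2 changes of 0.35, 0.34 and 0.28 (adjusted p = 8.95e-05, 7.4e-05 and 0.00023). Of the CCNA2 exon bases, 9.24% lie opposite EXOSC9. CCNF, an F-box protein that targets substrates for degradation rather than activating a kinase, rose most of this group. It was at 30.0, 28.8, 33.3 and 31.8 CPM in DMSO and at 41.2, 43.5, 44.0 and 40.4 CPM in PR-957, with a log2 change of 0.45 (SE 0.07, adjusted p = 2.08e-05). CDC25B, a phosphatase that starts CDK1 activation, rose by 0.27 (adjusted p = 0.000391). CDK1 itself was at 146, 154, 148 and 145 CPM in DMSO and at 157, 160, 138 and 136 CPM in PR-957. Its PR-957 libraries fell on both sides of the DMSO range, replicates 1 and 2 above it and replicates 3 and 4 below, with a log2 change of -0.0043 (SE 0.06, adjusted p = 0.961). CDC25C, the phosphatase that completes CDK1 activation, was low. It was at 9.21, 8.91, 7.73 and 8.78 CPM in DMSO and at 9.08, 8.87, 8.26 and 7.76 CPM in PR-957, and the groups overlapped (log2 fold change -0.03, SE 0.12, adjusted p = 0.861).

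In the kinetochore and centromere group, 4 of 7 genes rose. CENPA (chr2:26786015-26794589, plus strand, hg38), the histone H3 variant that marks centromeres, was at 17.9, 20.5, 20.9 and 21.0 CPM in DMSO and at 31.5, 31.6, 36.2 and 33.4 CPM in PR-957. Its groups were apart and its log2 fold change was 0.72 (SE 0.08, adjusted p = 4.05e-07), a 1.65-fold increase and the next largest after CDC20. CENPF, a large protein of the outer kinetochore, rose by 0.22 (adjusted p = 0.00189). The NDC80 complex, which grips microtubule ends, showed unequal changes of its 4 subunits. SPC24 and SPC25, which form the centromere end of the complex, rose by 0.49 (SE 0.07, adjusted p = 7.99e-06) and 0.68 (SE 0.23, adjusted p = 0.0193). NUF2 and NDC80, which form the microtubule end, had log2 changes of 0.06 (SE 0.06, adjusted p = 0.357) and 0.0091 (SE 0.06, adjusted p = 0.907). NDC80 was at 57.2, 53.5, 56.6 and 56.3 CPM in DMSO and at 55.3, 57.1, 55.5 and 57.1 CPM in PR-957, a narrow band in which the groups overlapped. MAD2L1, the checkpoint protein that binds CDC20, had a log2 change of 0.13 (adjusted p = 0.0941). The SPC25 value is uncertain. Its libraries held 1.27 to 1.75 CPM in DMSO and 2.06 to 2.7 CPM in PR-957, the gene has another placement on an alternate contig, and 17.3% of its exon bases lie opposite NOSTRIN. SPC25 did not pass without PR-957 replicate 3 (adjusted p = 0.0511), without PR-957 replicate 4 (adjusted p = 0.0567) or in replicates 1 and 2 alone (adjusted p = 0.258).

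Among 6 mitotic kinases, PLK1, BUB1 and AURKA rose and BUB1B, TTK and NEK2 did not pass the threshold. PLK1, the Polo kinase of mitotic entry and spindle assembly, was at 93.8, 94.3, 103 and 110 CPM in DMSO and at 131, 132, 124 and 131 CPM in PR-957. The groups did not overlap, and the log2 fold change was 0.37 (SE 0.06, adjusted p = 4.16e-05). It was 0.49 within replicates 1 and 2 and 0.26 within replicates 3 and 4, and passed in both (adjusted p = 9.25e-08 and 0.0191). BUB1, a checkpoint kinase of the kinetochore, and AURKA, the Aurora kinase of spindle poles, each rose by 0.31 (adjusted p = 0.000609 and 0.000198). The checkpoint genes BUB1B and TTK had log2 changes of 0.11 and 0.09 (adjusted p = 0.13 and 0.237). NEK2, a kinase that separates centrosomes, was at 37.4, 33.8, 37.3 and 39.0 CPM in DMSO and at 37.4, 39.6, 37.6 and 37.9 CPM in PR-957. These groups overlapped (log2 fold change 0.05, SE 0.07, adjusted p = 0.571).

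The chromosomal passenger complex divided evenly. BIRC5 (survivin) and CDCA8 (borealin), which place the complex at centromeres, rose, and the kinase AURKB and its scaffold INCENP passed no threshold. BIRC5 was at 78.0, 69.7, 78.8 and 75.4 CPM in DMSO and at 105, 104, 107 and 104 CPM in PR-957, with groups well apart and a log2 change of 0.48 (SE 0.06, adjusted p = 9.25e-07). CDCA8 rose by 0.30 (SE 0.06, adjusted p = 0.000549). AURKB was at 66.1, 60.0, 64.5 and 58.9 CPM in DMSO and at 73.0, 65.5, 62.3 and 66.5 CPM in PR-957. The AURKB groups overlapped (log2 fold change 0.10, SE 0.06, adjusted p = 0.204), as did those of INCENP (0.11, SE 0.06, adjusted p = 0.118). Scaled by library totals alone, both passed, at 0.18 and 0.19 (adjusted p = 0.0174 and 0.0128).

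In cytokinesis, ANLN and PRC1 rose. ANLN (anillin), the scaffold of the contractile ring, was at 52.1, 50.7, 49.1 and 48.1 CPM in DMSO and at 67.0, 75.7, 70.6 and 77.6 CPM in PR-957, with no overlap and a log2 change of 0.54 (SE 0.06, adjusted p = 7.45e-07). PRC1, which bundles midzone microtubules, rose by 0.20 (adjusted p = 0.00354), and 10.8% of its exon bases lie opposite PRC1-AS1. Within replicates 3 and 4 alone PRC1 did not pass (0.16, adjusted p = 0.116). RACGAP1, the partner of KIF23 in centralspindlin, had a log2 change of 0.13. ECT2, the exchange factor that activates RhoA at the cell equator, was at 27.7, 31.5, 28.7 and 26.8 CPM in DMSO and at 27.4, 32.2, 26.8 and 26.2 CPM in PR-957, with overlapping groups and a log2 change of -0.03 (SE 0.08, adjusted p = 0.819).

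Spindle assembly was the role with the lowest median log2 fold change, 0.14. NUSAP1, which bundles spindle microtubules near chromosomes, was at 103, 103, 110 and 102 CPM in DMSO and at 135, 142, 139 and 151 CPM in PR-957. It rose by 0.44 (SE 0.05, adjusted p = 2.48e-06) with no overlap. DLGAP5 (HURP), which stabilises kinetochore fibres, rose by 0.28 (adjusted p = 0.00269), at 0.45 within replicates 1 and 2 and 0.12 within replicates 3 and 4, where it did not pass (adjusted p = 0.324). TPX2, ASPM and CKAP2L, which act at spindle poles and microtubules, had log2 changes of 0.12, 0.10 and 0.15 and passed no threshold. HMMR (chr5:163460632-163491941, plus strand, hg38), which helps to organise spindle poles, was at 63.6, 64.7, 64.1 and 73.7 CPM in DMSO and at 57.0, 65.5, 54.0 and 57.8 CPM in PR-957. Its groups overlapped through PR-957 replicate 2, and DMSO replicate 4 was the highest library. The log2 fold change was -0.19 (SE 0.07, adjusted p = 0.0323). HMMR passed no threshold without DMSO replicate 4 (-0.13, adjusted p = 0.0919), nor without PR-957 replicate 1, 3 or 4 (adjusted p = 0.0736, 0.126 and 0.0649), nor when libraries were scaled by totals alone (-0.11, adjusted p = 0.219). Of its exon bases, 10.1% lie opposite HMMR-AS1.

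**Figure D3:**
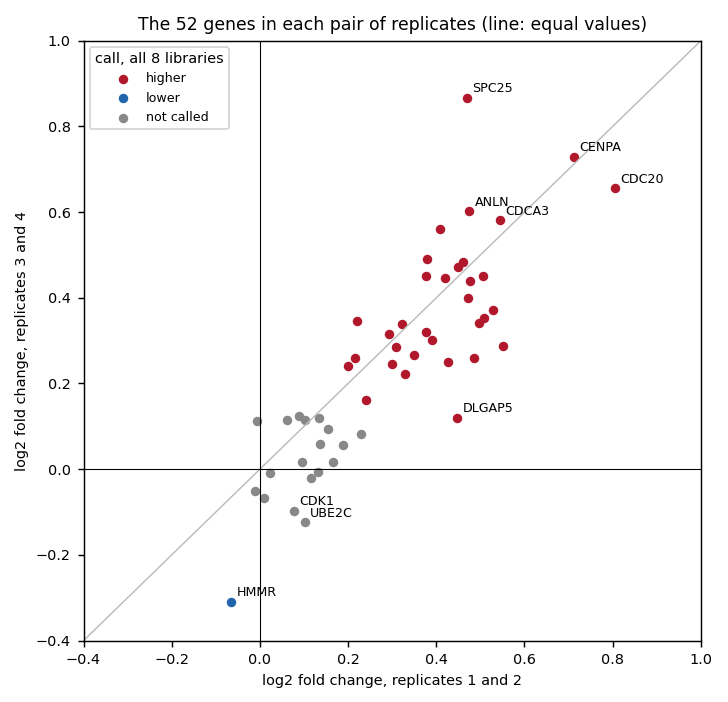
Log2 fold change of the 52 mitotic genes within replicates 1 and 2 (x axis) and within replicates 3 and 4 (y axis), coloured by the call over all 8 libraries. The grey line marks equal values. SPC25 and HMMR lie far from the line, DLGAP5 falls from 0.45 to 0.12, and CDC20 and CENPA are high in both.

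Partners in a complex or reaction had unequal fold changes. The ratio of their counts was therefore compared within each library, which does not depend on library scaling. The pairs were chosen with earlier results of these data known, so the ratios restate those fold changes and are no separate support. Ratios that share CDC20 or CDK1 also depend on each other. None of 16 ratios passed an adjusted p of 0.05 (exact permutation tests, two-sided, 4 against 4 libraries, Benjamini-Hochberg over the 16 ratios). At the unadjusted level 8 ratios reached 0.0286, the smallest p that 4 against 4 libraries allow, and their adjusted p was 0.0571. With 8 of 16 ratios at that smallest p no ratio could pass, so the adjusted test says little about any 1 ratio. How often ratios of other gene pairs separate the groups was not determined. The ratio of UBE2C to CDC20 was 0.943, 0.778, 0.769 and 0.869 in DMSO and 0.565, 0.484, 0.483 and 0.471 in PR-957, a difference of -0.74 on the log2 scale (SE 0.09). The ratio of MAD2L1 to CDC20, the checkpoint protein to its target, was 1.08 to 1.35 in DMSO and 0.757 to 0.801 in PR-957, a difference of -0.61 (SE 0.07). In both cases the PR-957 libraries lay below all DMSO libraries.

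Cyclin to kinase ratios lay higher in PR-957. The ratio of CCNB1 to CDK1 was 0.722, 0.646, 0.704 and 0.719 in DMSO and 0.815, 0.809, 0.898 and 0.877 in PR-957, a log2 difference of 0.28 (SE 0.05). For CCNA2 and CCNB2 over CDK1 the differences were 0.35 (SE 0.06) and 0.36 (SE 0.11), again without overlap. BIRC5 to AURKB was 1.16 to 1.28 in DMSO and 1.44 to 1.73 in PR-957, a difference of 0.38 (SE 0.06), and KIF23 to RACGAP1 differed by 0.20 (SE 0.06). BUB1B to BUB1 differed by -0.20 (SE 0.07). BUB1B shares 4.6% of its exon bases with the read-through gene BUB1B-PAK6 on the same strand. Ratios with overlapping libraries included INCENP to AURKB (0.01, SE 0.08), PTTG1 to ESPL1 (-0.02, SE 0.09), NDC80 to NUF2 (-0.06, SE 0.05), SPC24 to SPC25 (-0.18, SE 0.11) and TPX2 to AURKA (-0.18, SE 0.06).

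**Figure D4:**
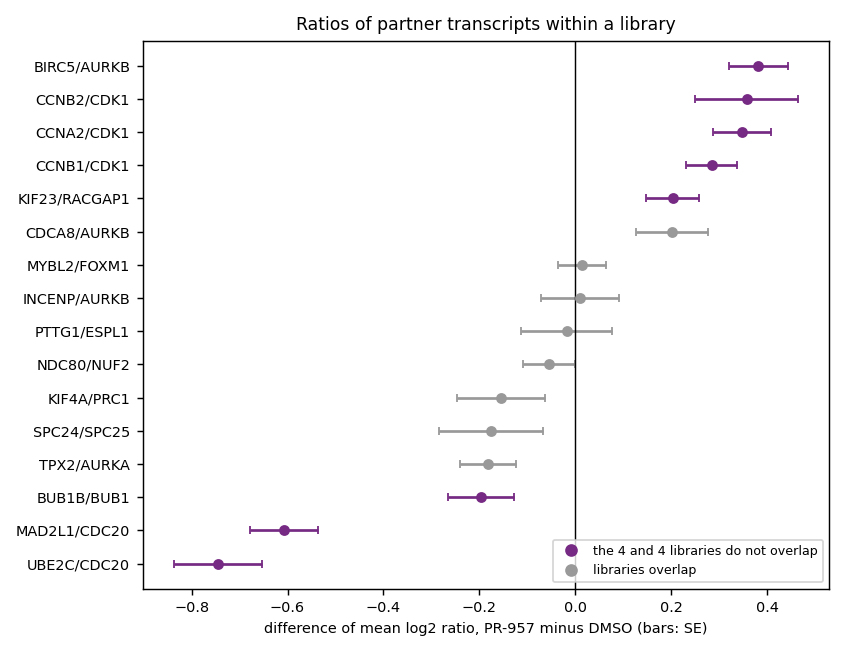
Difference of the mean log2 ratio of partner transcripts within a library, PR-957 minus DMSO (x axis, bars show the SE, 4 libraries per group), for 16 pairs. Purple points mark the 8 pairs whose libraries do not overlap between groups, from -0.74 for UBE2C to CDC20 up to 0.38 for BIRC5 to AURKB. Grey points mark pairs that overlap. The share of other gene pairs that would separate in this way was not determined. No pair passed the adjusted threshold.

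Levels of the genes were then compared with each other as RPKM, the normalised CPM per kilobase of exon. In DMSO, TOP2A was highest at 70.3 ± 3.11 RPKM (SD, n = 4), and its libraries did not overlap those of the next gene, UBE2C, at 55.8 ± 2.28. From UBE2C down to CCNA2 at 37.7 ± 2.27 each neighbour in the order overlapped the next. CDC20 stood at 52.5 ± 3.4 RPKM in DMSO, at rank 3, and at 87.1 ± 2.28 in PR-957, at rank 1, although TOP2A, at 85.8 ± 7.03 in PR-957, was within this spread. UBE2C moved from rank 2 to rank 7, at 55.5 ± 6.3 RPKM in PR-957 and CDK1 from rank 8 to rank 11, at 43.4 and 43.3 RPKM. HMMR moved from rank 19 to rank 30, at 22.1 and 19.4 RPKM. At the lower end were CDC25C at 3.37 and SPC25 at 0.486 RPKM in DMSO. The SPC25 value is too low, in part because the exon length of 3050 bases used for it counts both placements of the gene. The placement on chromosome 2 has 1707. With another placement of the gene, its low counts also cannot be read as low expression, and its place in the order is uncertain.

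To place these values, 97 other genes of mitosis in 8 lists were examined, of which 95 were tested. KIF15 and SKA1 did not pass the filter on low counts, and both, like SPC25, have another placement outside the main chromosomes, so their low counts cannot be read as low expression. In this wider set 40 genes passed as higher and 19 as lower by the same edgeR test, beside 23.1% higher and 23.5% lower over all tested genes, with a median log2 fold change of 0.09. The share of lower genes was near that background, as were several of the list counts that follow. By list, the median was highest for other kinesins and spindle proteins, 0.27, where 9 of 13 tested genes rose and 1 fell. It was lowest for cohesin and its protectors, -0.13, where 3 of 11 rose and 5 fell. Inner kinetochore genes spanned the widest range, from -0.61 to 0.95, with 6 of 15 higher and 2 lower. Among APC/C subunits and regulators 8 of 17 rose and 3 fell, among condensin subunits 3 of 8 rose and 1 fell, and in the DREAM and MuvB list 2 of 8 rose and 3 fell. The list of outer kinetochore and checkpoint genes held 5 increases and 3 decreases in 13 tested genes, and that of other kinases and phosphatases held 4 increases and 1 decrease in 10.

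The gene with the largest change of each list is given here. CENPX, a histone-fold protein of the inner kinetochore, was at 41.5, 38.8, 44.7 and 39.5 CPM in DMSO and at 88.8, 71.8, 77.6 and 79.4 CPM in PR-957, a log2 change of 0.95 (SE 0.07, adjusted p = 2.08e-09). CDC25A, a phosphatase that activates cyclin-dependent kinases from G1 onward, rose by 0.83 (adjusted p = 8.53e-08), and TACC3, a spindle protein that is a substrate of AURKA, rose by 0.77 (adjusted p = 2.03e-09). ZWINT, of the outer kinetochore, rose by 0.68 (adjusted p = 5.04e-09). LIN52, a MuvB subunit, rose by 0.60 (adjusted p = 0.000654), ANAPC15, an APC/C subunit needed to release the checkpoint complex, by 0.57 (adjusted p = 5.23e-06) and NCAPG2, of condensin II, by 0.30 (adjusted p = 8.65e-05). These 7 genes had no overlap between groups. RAD21, the cohesin subunit that separase cuts, moved the other way, from 418, 445, 451 and 412 CPM in DMSO to 296, 320, 275 and 275 CPM in PR-957, a log2 change of -0.57 (SE 0.06, adjusted p = 2.94e-07).

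Other decreases were named after their values were seen. In the APC/C list ANAPC16 (-0.545), CDC16 (-0.41) and ANAPC10 (-0.24) fell. Further cohesin genes also fell, STAG2 (-0.35), NIPBL (-0.23), STAG1 (-0.21) and SMC3 (-0.15). SMC1A, a core cohesin subunit, and SGO1 and SGO2, which shield centromeric cohesin, rose by 0.18, 0.21 and 0.27. Within MuvB, LIN9 fell by 0.46 and LIN54, the subunit that reads the CHR, fell by 0.26. CENPH (-0.61) fell beside increases of CENPM, CENPI and CENPO of 0.75, 0.68 and 0.60. The remaining decreases were HASPIN (-0.39), SMC4 (-0.29), NSL1 (-0.28), MAD1L1 (-0.27), BUB3 (-0.23), RBL2 (-0.21), CENPU (-0.18) and NUMA1 (-0.17). All genes named in this paragraph passed the adjusted threshold in the edgeR fit of 8 libraries, but several calls were weak. With library totals alone, STAG1 (adjusted p = 0.16), SMC3 (adjusted p = 0.221) and LIN54 (adjusted p = 0.0844) did not pass. Neither did ANAPC10, RBL2, CENPU and NUMA1 (adjusted p = 0.113, 0.0719, 0.16 and 0.231). Within replicates 3 and 4, SMC3, SMC1A, SGO1, SGO2, LIN54, ANAPC10, CENPU and NUMA1 did not pass (adjusted p from 0.0505 for SGO2 to 0.201 for SGO1). Within replicates 1 and 2, STAG1, SGO1 and LIN54 did not (adjusted p = 0.267, 0.0534 and 0.0523). ANAPC10, CENPU and MAD1L1 did not pass there either (adjusted p = 0.239, 0.181 and 0.0578).

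**Figure D5:**
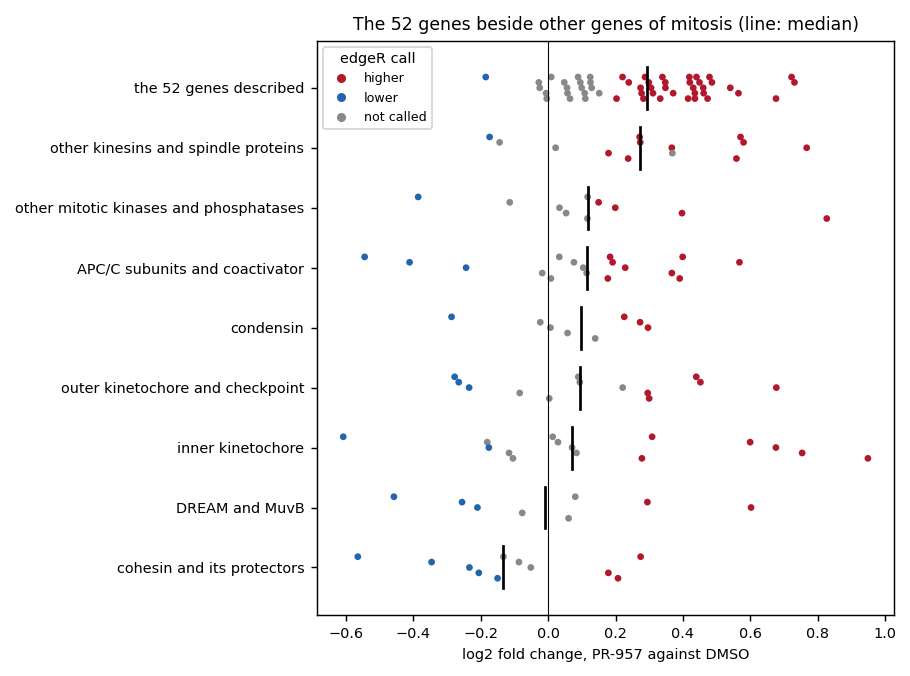
Log2 fold change of PR-957 against DMSO (x axis) for the 52 mitotic genes and for 95 tested genes in 8 further lists of mitosis. Each point is a gene, coloured by the edgeR call, vertical lines are medians, and vertical spread within a row only separates points. The median falls from 0.29 for the 52 genes to -0.13 for cohesin and its protectors, the list with the most decreases, 5 of 11.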

How the data were processed

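RNA-sequencing was analysed from 4 DMSO and 4 PR-957 libraries of MOLM-13, grouped and numbered by their titles. The submitters' processing notes name Trimmomatic 0.39, STAR 2.7.10a, featureCounts 2.0.1, DESeq2 and hg38. The deposited table holds raw counts of fragments over the exons of each gene, not normalised by the authors and made on the reverse strand per the file headers. The labels do not say whether the kit kept strand, and without strand, reads of overlapping genes on opposite strands cannot be told apart. The counting command named 16 libraries, of which 8 were not analysed here. Rows with no values (6) were left out. The authors' deposited comparison (log2 fold change, p-values) was not used.

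PR-957 was compared with DMSO in edgeR 4.0.16 under R 4.3.3 (TMM, filterByExpr, robust glmQLFit, glmQLFTest), two-sided, with no covariate, on 13179 genes holding 99.9% of counts, with Benjamini-Hochberg adjustment. The fit was tested on simulated data in which 200 of 13045 genes were changed. It recovered 72% of 1.5-fold and 86% of 2-fold changes, and 4.82% of its calls were false. Smaller changes, the size of most seen in the mitotic genes, were not simulated. The simulation therefore does not show how many of those would be missed. SE was the size of the log2 fold change over the root of its F statistic. Ratios used counts plus 0.5 and exact permutation tests in SciPy 1.17.1. Chi-square comparison of replicate libraries found no duplicates (lowest value 3.32 per gene). Overlap of exons was taken from the deposited gene models. No count of a mitotic gene was 0, and precision at low counts reflects counting error and the spread of 4 libraries.

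The genes, roles and lists were chosen with earlier results of these data known. All 52 genes could be named. Values in every library were given for the highest and lowest fold change of each role, and in each further list the gene with the largest absolute change that passed was named. Promoters were shown for the highest gene, not on chromosome 8, of the 3 roles with the highest median and for the lowest gene, where RefSeq windows were held. Alternatives were DESeq2 1.42.0, limma-voom (limma 3.58.1), RLE, upper-quartile and total scaling, removal of mitochondrial and ribosomal protein genes, no filter or at least 1 CPM in 4 libraries, the replicate number as a block, a batch term for replicates 1 and 2 against 3 and 4, each pair alone, and leaving out each of the 8 libraries. The values of 2 markers of other cell types are not reported here.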

Additional observations from a re-analysis of the deposited data

Results flagged for a closer look

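In 8 of 104 groups of 4 libraries (52 genes in both treatments), 1 library lay far from the others relative to the range of its group, by the 95% limit of Dixon. Chance flags about 1 in 20 such groups, which is 5.2 of 104. In PR-957, UBE2C was at 84.2 CPM in replicate 1, against 66.6 to 69.5 in the others, ASPM at 92.8 CPM in replicate 2, against 75.8 to 78.0, and PLK1 at 124 CPM in replicate 3, against 131 to 132. In DMSO, CDCA2 was at 41.2 CPM in replicate 3, against 36.0 to 36.7, and NUSAP1 at 110 CPM in the same library, against 102 to 103. CDC25B was at 54.4 CPM in DMSO replicate 1, against 56.9 to 57.2, and CENPA at 17.9 CPM there, against 20.5 to 21.0. HMMR was at 73.7 CPM in DMSO replicate 4, against 63.6 to 64.7. Among these genes the call of HMMR was lost without the library that stood apart, as given in the report, and those of CDCA2, CDC25B, CENPA, PLK1 and NUSAP1 held in all 20 alternative fits.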

How the results depend on the processing

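Over 20 alternative fits of each gene, 984 values kept direction and side of the threshold, 19 newly passed, 11 no longer passed and 26 changed sign, all 26 in genes that passed no threshold. The number of mitotic genes called higher ran from 31 to 36, except 43 with library totals alone. Apart from the main fit and library totals alone, calls over all tested genes were not counted, so these numbers have no background beside them. With library totals alone the median was 0.37, against 0.0807 over all tested genes. In that fit 12 genes of the wider set were lower, down from 19, while genes lower over all tested genes went from 3098 to 2353. At least 1.5-fold increases were called for 5 mitotic genes, and the share of all tested genes at that threshold was not determined with this scaling. HMMR, the only decrease, left 0 genes lower with library totals alone and in replicates 1 and 2, and 0 or 1 when a library was left out. The fit with the replicate block gave 36 genes higher, adding RACGAP1, TPX2 and MAD2L1 (adjusted p = 0.031, 0.0332 and 0.0355). Same-numbered libraries deviated together with correlations of 0.15, 0.21, 0.0985 and 0.20. PR-957 replicates 1, 2 and 4 each correlated best with the DMSO library of the same number. PR-957 replicate 3 correlated only slightly better with DMSO replicate 4 (0.1053) than with DMSO replicate 3 (0.0985). These values do not settle whether the libraries are paired. The labels state no pairing, so the main fit held none and the block is given as an alternative. Sign changed as follows. UBE2C was at 0.0043 with upper-quartile scaling, 0.0703 with totals alone, 0.10 in replicates 1 and 2, and -0.094 to 0.027 with a library left out. CDK1 was at 0.0065, 0.0726 and 0.0779 in the same 3 settings and -0.0437 to 0.0302. CDC25C was at 0.0488 with totals alone and -0.0783 to 0.0099. ECT2 was at 0.0523 with totals alone, 0.0094 in replicates 1 and 2, and -0.0962 to 0.0212. KIF4A was at -0.0063 in replicates 1 and 2. In replicates 3 and 4, NUF2 was at -0.0061, NDC80 at -0.0083 and NEK2 at -0.0203, and NDC80 ran from -0.013 to 0.0182 with a library left out. The causes were not tested. Ratios called stayed at 0 with a pseudocount of 1. With 3 libraries in a group the smallest exact p is 0.0571, and a sign-flip test of 4 pairs cannot pass the threshold, so for ratios these were not run.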
